A study of Mus musculus with 203 samples.

Results

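RNA-seq of airway tissue was compared between mice exposed to house dust mite extract (HDM) and mice exposed to HDM and treated with the glucocorticoid dexamethasone (DEX). The 20 libraries were chosen by their titles, 10 labelled HDM.AIR.DEX and 10 labelled HDM.AIR in the airway at 11 weeks, and made up 9.85% of all libraries of the series. The mice were female Balb/C animals with an age label of 18 to 20 weeks, no genetic modification is named, and both groups breathed normal air. HDM was given intranasally on 5 days a week for 3 weeks and then 3 times a week from week 4 to week 11, and DEX was given during week 11. The dose and route of DEX were not given in the sources used here. Side comparisons used 10 airway libraries a group from mice given phosphate buffered saline (PBS) in place of HDM, with or without DEX in normal air, and from mice given HDM together with cigarette smoke, with or without DEX. The labels do not tie a library to an animal, so the p-values measure the spread between libraries.

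Dexamethasone is a synthetic glucocorticoid. It binds the glucocorticoid receptor in the cytoplasm, and the receptor then enters the nucleus, binds DNA at glucocorticoid response elements and raises genes such as Fkbp5 and Tsc22d3, while it restrains inflammatory transcription by NF-κB and AP-1. Glucocorticoids also cause the death of thymocytes and other lymphocytes, and they are a mainstay of the treatment of asthma, in which inhaled allergens drive type 2 cytokines, mucus production and antibody responses in the airway.

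The total count per library was 23420597 to 32434934 over both groups, and no pair of libraries of a group agreed within sampling noise. On the first principal component of the 20 libraries (32.67% of the variance) HDM.AIR libraries lay between -26.5 and -11.6. The HDM.AIR.DEX library with the code X11 lay at -4, nearest to them, and the other 9 lay between 11.2 and 35.5. Airway had been parted from parenchyma by dissection under a microscope. Levels are given in CPM, which are counts scaled to the same library size. The 12 ciliated cell markers had a summed level of 739 to 1831 CPM (median 1291) in HDM.AIR libraries, and the 10 markers of alveolar type II cells, which line alveoli and not airways, of 15965 to 29975 CPM (median 18271). The tissue is thus a mixture, in which fewer cells of a type and less RNA per cell cannot be told apart.

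With DEX more genes were lower than higher, and the falls were larger. Among 18015 genes tested, 1970 were higher (10.9%) and 2705 lower (15.0%) with DEX at an adjusted p-value under 0.05 in limma-voom, and the median log2 fold change (log2FC, DEX over no DEX) over all genes was 0.01. At least 2-fold higher were 97 genes (0.538%), and at least 2-fold lower 868 (4.82%). In 422 genes (2.34%) every DEX library lay below every HDM library, and in 0.566% every DEX library lay above. Without X11, 1967 genes were higher and 2776 lower.

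Genes of cell division fell together. All 24 cell cycle genes tested were lower with DEX, with a median log2FC of -1.99, and in 22 of them the groups did not overlap. Kif11, a motor protein of the mitotic spindle, ranged over 12.7 to 23.4 CPM (median 16.3) in HDM.AIR and 1.52 to 6.995 CPM (median 2.76) in HDM.AIR.DEX libraries. Every DEX library lay below every HDM library, and the level was 4.93-fold lower (log2FC -2.30, SE 0.19, adjusted p = 5.3e-16). Aurkb, a mitotic kinase, ranged over 6.49 to 9.94 CPM (median 8.30) without and 0.842 to 3.95 CPM (median 1.57) with DEX, again without overlap (log2FC -2.22, SE 0.19, adjusted p = 1.1e-15). Mcm6, a subunit of the helicase that opens DNA for replication, ranged over 29.3 to 47.1 CPM (median 39.1) without and 9.16 to 21.96 CPM (median 13.3) with DEX, also without overlap (log2FC -1.53, SE 0.13, adjusted p = 8.3e-16). The members with the smallest changes, chosen after their values were seen, were Pcna, the sliding clamp of DNA polymerase (log2FC -0.48), and E2f1, a transcription factor of entry into S phase (log2FC -0.40).

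**Figure D1:**
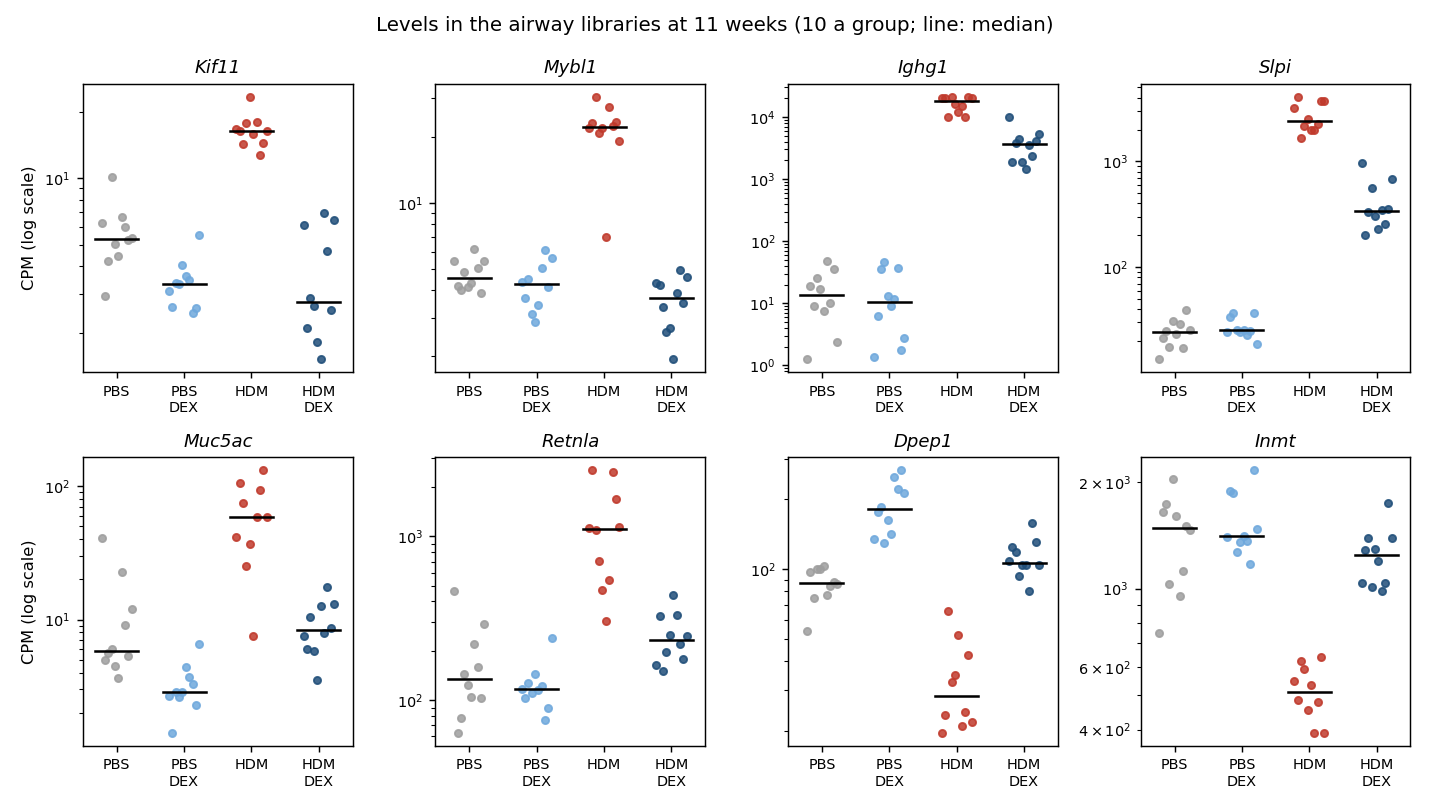
Levels of 8 genes in CPM on a log axis in 4 groups of airway libraries in normal air (PBS and HDM, without and with DEX), with 1 point for each library, 10 libraries a group and a line at the median; values under 0.02 CPM are drawn at 0.02. For Kif11, Mybl1 and Slpi all HDM DEX libraries lie below all HDM libraries, and for Dpep1 and Inmt all lie above.

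Among the falls with the smallest p-values were genes of DNA synthesis and chromosome structure. Dck, a kinase that salvages deoxynucleosides, ranged over 29.2 to 40.6 CPM (median 36.3) without and 9.74 to 19.7 CPM (median 14.4) with DEX. The groups did not overlap (log2FC -1.28, SE 0.09, adjusted p = 2.3e-19). Uhrf1, which maintains DNA methylation after replication, was 3.99-fold lower (adjusted p = 7.4e-17). Ncapd2, a condensin subunit, was 2.67-fold lower (adjusted p = 8.8e-17), and Lmnb1, lamin B1 of the nuclear envelope, was 2.18-fold lower (adjusted p = 8.8e-17). In these 3 genes too every DEX library lay below every HDM library. Among the 10 largest falls without overlap were 4 more genes of division, Cdc25c, the phosphatase that starts mitosis (log2FC -3.09), Esco2, which acetylates cohesin (-2.83), Pimreg (-2.76) and Pclaf, a partner of PCNA (-2.73).

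Promoters of cell cycle genes often carry CCAAT boxes and a cell cycle homology region (TTTGAA). These letters were searched on both strands in the 250 bases before each RefSeq gene start (GRCm38.p6). Of the 21 cell cycle genes with a window, 18 (85.7%) held CCAAT and 8 (38.1%) held TTTGAA. Over the 12849 tested genes with a window, 39.5% held CCAAT and 13.6% held TTTGAA. Among the genes lower with DEX the shares were 43.6% and 17.6%, and among those higher 36.6% and 11.7%. The windows of Top2a, the topoisomerase that untangles chromosomes (log2FC -2.39), Ccnb2, a mitotic cyclin (-2.22), and Kif11 are shown because each holds both motifs, which are in capitals on either strand. Top2a and Ccnb2 were chosen after their values were seen.
Top2a (chr11:99024190-99024439, minus strand): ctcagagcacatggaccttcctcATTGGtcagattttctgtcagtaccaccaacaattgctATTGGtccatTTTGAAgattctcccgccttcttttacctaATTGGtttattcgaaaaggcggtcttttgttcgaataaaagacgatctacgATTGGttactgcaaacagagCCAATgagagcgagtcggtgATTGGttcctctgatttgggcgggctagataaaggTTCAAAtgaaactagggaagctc
Ccnb2 (chr9:70421555-70421804, minus strand): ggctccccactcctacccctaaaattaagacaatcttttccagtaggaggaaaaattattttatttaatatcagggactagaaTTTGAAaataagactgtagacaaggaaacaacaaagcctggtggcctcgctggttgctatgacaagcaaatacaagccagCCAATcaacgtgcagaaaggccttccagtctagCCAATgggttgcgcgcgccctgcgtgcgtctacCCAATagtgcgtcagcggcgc
Kif11 (chr19:37376132-37376381, plus strand): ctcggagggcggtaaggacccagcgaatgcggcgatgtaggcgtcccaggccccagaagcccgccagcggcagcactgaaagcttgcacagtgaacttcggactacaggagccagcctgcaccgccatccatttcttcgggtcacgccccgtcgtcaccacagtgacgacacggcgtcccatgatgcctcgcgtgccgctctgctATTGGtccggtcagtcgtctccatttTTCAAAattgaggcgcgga
A match of letters describes the window and does not show a binding site.

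Single genes known from germinal centre B cells were among the falls, and no list of them was tested. Germinal centres are the sites in lymphoid tissue where B cells divide and mutate their antibody genes. Mef2b, a transcription factor of germinal centre B cells, ranged over 2.59 to 8.60 CPM (median 7.29) without and 0.395 to 1.57 CPM (median 0.859) with DEX, without overlap (log2FC -2.80, SE 0.26, adjusted p = 3.0e-14). Mybl1, a transcription factor of the same cells, ranged over 7.01 to 30.5 CPM (median 22.2) without and 1.94 to 4.94 CPM (median 3.69) with DEX. Even X109, the lowest HDM library, lay above every DEX library (log2FC -2.56, SE 0.21, adjusted p = 1.8e-16). Chosen after their values were seen, Rgs13, a regulator of G protein signalling in these cells, was 21.4-fold lower (adjusted p = 3.8e-10), and Bcl6, the master regulator of the germinal centre, did not pass. Bcl6 ranged over 39.8 to 60.4 CPM (median 49.3) without and 32.5 to 53.1 CPM (median 42.7) with DEX, and the groups overlapped (log2FC -0.21, SE 0.09, adjusted p = 0.09). It passed with the code step of the libraries, their order within a group, as a block (adjusted p = 0.017) and with sample quality weights (adjusted p = 0.0093).

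Of 11 B cell markers 10 were lower (median log2FC -1.28), and of 15 plasma cell markers 13 (median -1.51), beside 15.0% of all genes. Fcrla, an intracellular protein of B cells, ranged over 23.4 to 36.8 CPM (median 30.1) without and 5.59 to 15.9 CPM (median 8.60) with DEX, without overlap (log2FC -1.75, SE 0.21, adjusted p = 1.5e-10). Cr2, the complement receptor of B cells and follicular dendritic cells, was 5.34-fold lower (adjusted p = 8.7e-07). Irf4, a transcription factor needed for plasma cells, ranged over 48.5 to 86.1 CPM (median 69.3) without and 14.9 to 39.4 CPM (median 23.6) with DEX, without overlap (log2FC -1.51, SE 0.17, adjusted p = 7.8e-11). Derl3, of the protein quality control of the endoplasmic reticulum, was 2.65-fold lower (adjusted p = 3.6e-10). Ighg1, the constant region of IgG1, ranged over 9955 to 21211 CPM (median 18252) without and 1438 to 10102 CPM (median 3669) with DEX. In all, 9 DEX libraries lay below every HDM library (log2FC -2.27, SE 0.73, adjusted p = 0.015). In PBS airways without DEX the mean was 17.6 CPM, far below both HDM groups. Immunoglobulin genes share reads with near-identical copies, so single antibody genes are uncertain.

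Natural killer and dendritic cell markers were mostly lower too, while the T cell and thymocyte counts depended on the test. All 12 natural killer and cytotoxic cell markers tested were lower (median log2FC -1.09), as were 9 of 10 dendritic cell markers (median -1.14), beside 15.0% of all genes. Of 16 T cell markers 11 were lower (median -0.88), a count of 2 with edgeR, 3 with DESeq2 and 6 with the code step as a block. The counts of 2 and 3 lie near the 15.0% of all genes. Klrk1, the activating receptor NKG2D, ranged over 7.68 to 22.8 CPM (median 10.3) without and 2.96 to 9.27 CPM (median 4.94) with DEX. All DEX libraries but 1 lay below every HDM library (log2FC -1.31, SE 0.21, adjusted p = 7.3e-07). Flt3, a growth factor receptor of dendritic cell precursors, ranged over 15.01 to 30.6 CPM (median 16.2) without and 4.19 to 10.2 CPM (median 5.41) with DEX, without overlap (log2FC -1.58, SE 0.15, adjusted p = 9.4e-14). Xcr1, a chemokine receptor of cross-presenting dendritic cells, was 3.16-fold lower (adjusted p = 7.2e-11), and Icos, a costimulatory receptor of T cells, was 1.91-fold lower (adjusted p = 3.7e-05). Of 8 tested thymocyte markers 4 were lower, a count of 2 with edgeR and 2 with DESeq2. Among them Dntt, the template-free polymerase of developing lymphocytes, was low throughout, at 0.109 to 1.72 CPM (median 0.483) without and 0 to 0.151 CPM (median 0.0384) with DEX, with overlap (log2FC -3.16, SE 0.60, adjusted p = 2.6e-05).

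Of 12 macrophage markers 2 were lower and 1 higher (median log2FC -0.07), beside 15.0% and 10.9% of all genes. Lower were Ear1 (log2FC -1.47, adjusted p = 0.0023), chosen after its values were seen, and Ear2 (log2FC -1.22, adjusted p = 8.9e-04), and higher was Gpnmb. Of 10 neutrophil markers 1 was lower, Ly6g (log2FC -1.45, adjusted p = 3.2e-04). Gpnmb, a glycoprotein of lipid-laden macrophages, ranged over 160.3 to 749.8 CPM (median 393) without and 489 to 1666 CPM (median 889) with DEX. All DEX libraries but 1 lay above every HDM library (log2FC 1.30, SE 0.30, adjusted p = 6.1e-04). Spi1, the myeloid transcription factor PU.1, ranged over 47.1 to 89.02 CPM (median 61.7) without and 40.9 to 74.8 CPM (median 52.3) with DEX and did not pass (log2FC -0.19, SE 0.16, adjusted p = 0.45). In a list of 20 C-type lectins and genes linked to SPI1, 5 were lower and 1 higher (median -0.26). The lower members included Clec4n, the fungal receptor dectin-2 (2.26-fold lower, adjusted p = 8.5e-06), Irf8, a transcription factor of monocytes and dendritic cells (1.92-fold lower, adjusted p = 1.3e-08), and Csf1r, the receptor of the macrophage growth factor (1.30-fold lower, adjusted p = 3.5e-04). The higher member was Cebpa (log2FC 0.35, adjusted p = 0.0024), chosen after its values were seen. Il1rn (log2FC -0.45, adjusted p = 0.19) and Ptafr (log2FC -0.23, adjusted p = 0.22) did not pass. Neither did Itgax (log2FC -0.35, adjusted p = 0.39) and Clec7a (log2FC -0.57, adjusted p = 0.12). The study had prioritised Il1rn, Ptafr, Itgax and Clec7a as genes downstream of SPI1.

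**Figure D2:**
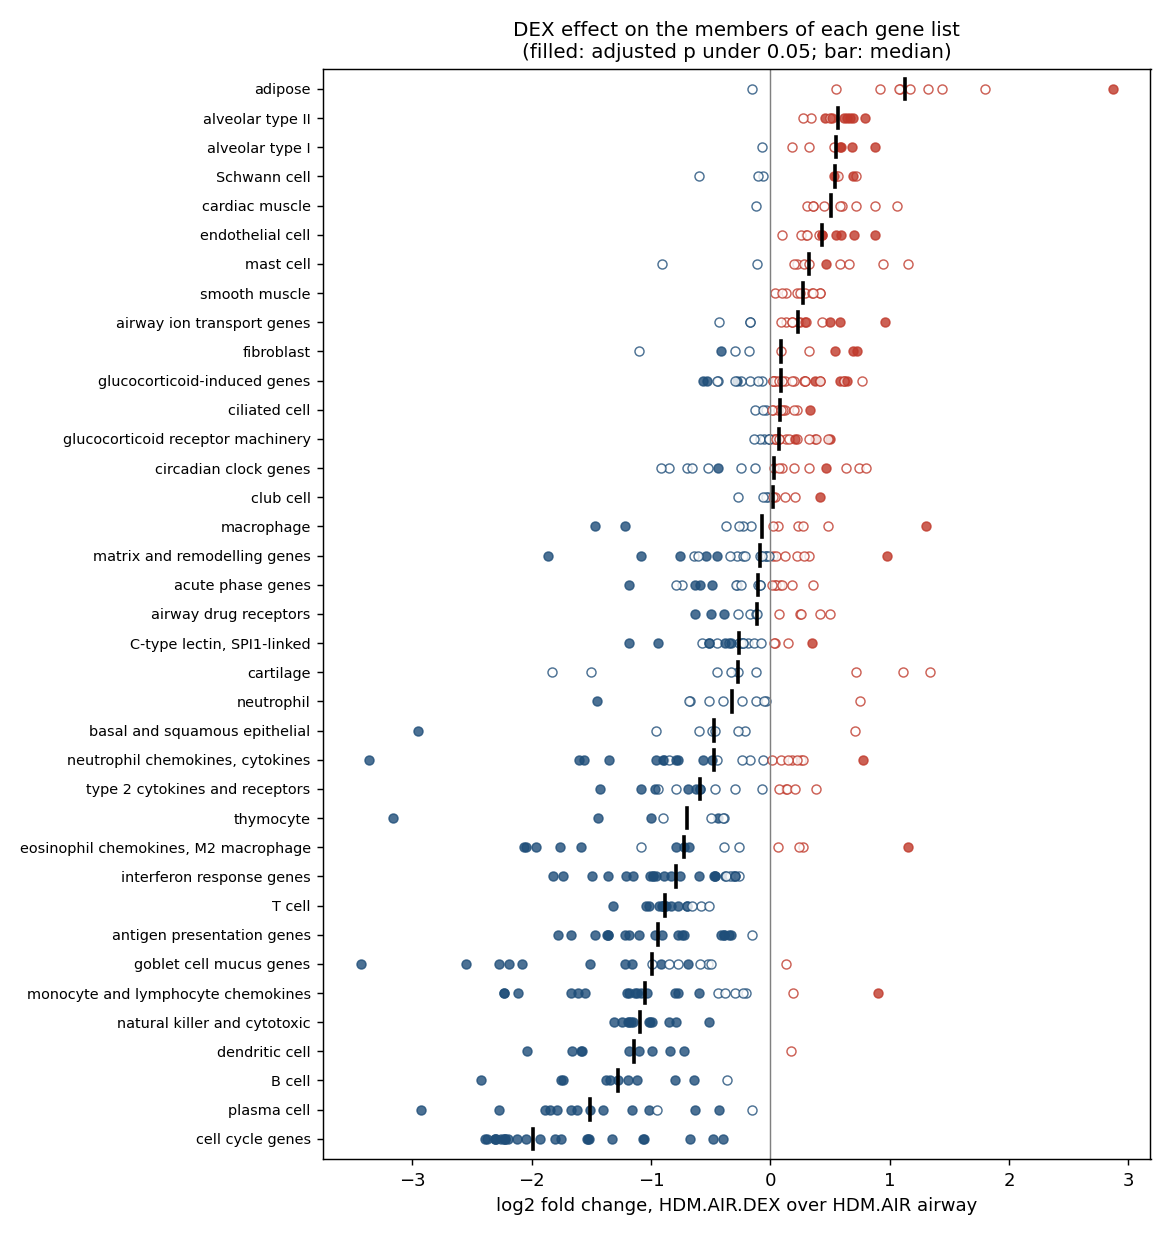
Log2FC of HDM.AIR.DEX over HDM.AIR airway libraries for every tested member of the gene lists with at least 8 tested members, with 1 point a gene, filled where the adjusted p-value was under 0.05, and a bar at the list median. Every cell cycle gene lies below 0 (median -1.99), while glucocorticoid-induced genes lie on both sides of it (median 0.09).

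Antigen presentation and interferon genes were mostly lower. Of 20 antigen presentation genes 19 were lower (median log2FC -0.94), and of 24 tested interferon response genes 19 (median -0.79), against 15.0% of all genes. H2-Aa, a chain of MHC class II, ranged over 788 to 1745 CPM (median 954) without and 294 to 964 CPM (median 368) with DEX. X11 was the highest DEX library, and the other 9 lay below every HDM library (log2FC -1.37, SE 0.17, adjusted p = 2.4e-10). Ciita, the coactivator that switches on MHC class II, was 2.57-fold lower (adjusted p = 5.5e-10), and Cd74, its invariant chain, was 2.32-fold lower (adjusted p = 3.9e-10). Gbp4, an interferon-induced GTPase, ranged over 131.97 to 906 CPM (median 219) without and 35.6 to 367 CPM (median 57.8) with DEX. Of the DEX libraries 8 lay below every HDM library (log2FC -1.82, SE 0.28, adjusted p = 2.8e-07). Zbp1, a sensor of nucleic acids, was 2.82-fold lower (adjusted p = 4.9e-08).

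Interferon-induced promoters carry a response element with the core TTTCNNTTTC. On either strand it was found in the windows of 9 of the 16 interferon list genes that had one (56.2%), against 3.34% of all tested genes with a window. Isg15, a ubiquitin-like protein (log2FC -0.98, adjusted p = 3.3e-04), and Rsad2, the antiviral enzyme viperin (log2FC -1.01, adjusted p = 1.4e-04), are shown with the core in capitals, the first with 3 overlapping matches and the second with 1. Both were chosen after their values were seen.
Isg15 (chr4:156200819-156201068, minus strand): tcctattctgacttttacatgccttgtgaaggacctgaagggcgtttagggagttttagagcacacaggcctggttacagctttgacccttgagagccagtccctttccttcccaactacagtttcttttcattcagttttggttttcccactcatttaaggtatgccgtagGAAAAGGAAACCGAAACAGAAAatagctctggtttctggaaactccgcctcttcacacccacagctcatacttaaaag
Rsad2 (chr12:26456453-26456702, minus strand): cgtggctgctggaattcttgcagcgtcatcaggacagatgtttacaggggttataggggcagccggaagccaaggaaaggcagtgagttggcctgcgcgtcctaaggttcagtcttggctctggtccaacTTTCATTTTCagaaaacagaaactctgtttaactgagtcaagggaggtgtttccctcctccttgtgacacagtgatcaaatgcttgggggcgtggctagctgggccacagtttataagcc
In the same windows the core was found in 6.38% of the genes lower and 2.74% of the genes higher with DEX.

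Of 22 chemokines and receptors of monocytes and lymphocytes 15 were lower and 1 higher (median log2FC -1.05), beside 15.0% and 10.9% of all genes. Cxcl13, which draws B cells into follicles, ranged over 104.5 to 213 CPM (median 158.5) without and 14.7 to 299 CPM (median 33.8) with DEX. Of the DEX libraries 8 lay below every HDM library and 1 lay above all of them (log2FC -1.61, SE 0.37, adjusted p = 5.8e-04). Ccr2, the monocyte receptor of CCL2, ranged over 139.1 to 251 CPM (median 162.6) without and 49.8 to 133.7 CPM (median 82.8) with DEX, without overlap (log2FC -1.03, SE 0.18, adjusted p = 3.0e-06). Cxcr5, the receptor of CXCL13, was 2.93-fold lower (adjusted p = 5.3e-06).

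Of 24 neutrophil chemokines and pro-inflammatory genes 11 were lower and 1 higher (median log2FC -0.47), beside 15.0% and 10.9% of all genes. Il12b, the shared subunit of IL-12 and IL-23, ranged over 0.762 to 4.51 CPM (median 1.61) without and 0 to 0.553 CPM (median 0.232) with DEX, without overlap (log2FC -3.36, SE 0.44, adjusted p = 2.8e-09). Il6 was 3.03-fold lower (adjusted p = 5.7e-05), Il1b 1.95-fold lower (adjusted p = 0.0019) and Nos2, inducible nitric oxide synthase, 2.94-fold lower (adjusted p = 1.5e-07). Cxcl1, a neutrophil chemokine, ranged over 10.1 to 47.5 CPM (median 21.8) without and 5.84 to 56.7 CPM (median 28.6) with DEX and did not pass (log2FC 0.18, SE 0.29, adjusted p = 0.71). Outside the list, Slpi, a secreted inhibitor of neutrophil elastase, ranged over 1672 to 4081 CPM (median 2397) without and 200.2 to 967 CPM (median 339) with DEX. Its groups did not overlap, and it was among the 10 largest such falls (log2FC -2.80, SE 0.27, adjusted p = 1.0e-13).

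Type 2 cytokines were weakly expressed. Of 17 tested type 2 cytokines, alarmins and receptors 6 were lower and 0 higher (median log2FC -0.59), beside 15.0% and 10.9% of all genes. Leaving out 1 library gave 4 (X189) to 7 (X51) lower members. Il4 ranged over 0.212 to 1.31 CPM (median 0.544) without and 0.0961 to 0.423 CPM (median 0.178) with DEX, with overlap (log2FC -1.43, SE 0.34, adjusted p = 7.8e-04). Il13, the cytokine that drives mucus cells, ranged over 0.0375 to 0.869 CPM (median 0.394) without and 0.0334 to 0.356 CPM (median 0.128) with DEX and did not pass (log2FC -0.94, SE 0.47, adjusted p = 0.14), while it passed with edgeR (adjusted p = 0.025). Il5, the growth factor of eosinophils, and Epx, their peroxidase, were not tested, since no library of the 20 held more than 8 and 10 counts of them. Il1rl1, the receptor of IL-33, was 1.51-fold lower (adjusted p = 0.011).

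Of 15 eosinophil chemokines and genes of alternatively activated macrophages 8 were lower and 1 higher (median log2FC -0.72), beside 15.0% and 10.9% of all genes. Retnla, a secreted product of alternatively activated macrophages, ranged over 304 to 2521 CPM (median 1109.6) without and 149.5 to 439 CPM (median 233) with DEX. Of the DEX libraries 7 lay below every HDM library (log2FC -2.06, SE 0.30, adjusted p = 5.4e-08). Arg1, arginase 1, was 3.89-fold lower (adjusted p = 2.8e-04). Ccl8 and Ccl22, chemokines of T cells, were 3.39-fold lower (adjusted p = 1.5e-06) and 3.02-fold lower (adjusted p = 1.9e-06). Chil4, a chitinase-like protein, passed narrowly (log2FC -2.05, SE 0.74, adjusted p = 0.031) and did not pass without any 1 of X11, X29, X49, X51, X71, X149 or X169 (adjusted p = 0.052 to 0.065). The eosinophil chemokines Ccl11 (log2FC -0.39, SE 0.38, adjusted p = 0.5) and Ccl24 (log2FC -1.08, SE 0.44, adjusted p = 0.062) did not pass. Ccl24 passed with edgeR (adjusted p = 0.0017), with DESeq2 (adjusted p = 0.00044), with the code step as a block (adjusted p = 0.021), with all 160 libraries at 11 weeks (adjusted p = 0.032), with quality weights (adjusted p = 0.0074) and without any 1 of X69, X89 or X109 (adjusted p = 0.03 to 0.039), and Ccl11 passed with quality weights (adjusted p = 0.044). Ccl11 ranged over 2.74 to 49.97 CPM (median 14.3) without and 6.21 to 23.9 CPM (median 10.5) with DEX, and no DEX library lay outside the HDM range. Of 7 tested eosinophil markers 4 were lower, among them the eotaxin receptor Ccr3 (2.86-fold lower, adjusted p = 8.2e-04). The eosinophil count was 2 without any 1 of X11, X29, X31, X71, X131, X149, X169 or X171.

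Of 17 goblet cell mucus genes 10 were lower and 0 higher (median log2FC -0.99), beside 15.0% and 10.9% of all genes. Clca1, a secreted protein of goblet cells, ranged over 21.6 to 1678 CPM (median 431) without and 10.4 to 63.02 CPM (median 26.4) with DEX. The groups overlapped, with 2 DEX libraries below every HDM library and all 10 below the HDM median (log2FC -3.43, SE 0.64, adjusted p = 1.7e-05). Muc5ac, the gel-forming mucin induced by allergen, ranged over 7.57 to 130.6 CPM (median 58.2) without and 3.50 to 17.5 CPM (median 8.29) with DEX. Of the DEX libraries 4 lay below every HDM library (log2FC -2.55, SE 0.37, adjusted p = 5.5e-08). Tff1, a trefoil peptide, was 4.82-fold lower (adjusted p = 2.6e-05).

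Of the markers of airway epithelium 1 of 9 for club cells, Cyp2f2 (log2FC 0.42, adjusted p = 0.0055), and 1 of 12 for ciliated cells, Tppp3 (log2FC 0.33, adjusted p = 0.015), were higher, a share near the 10.9% of all genes. Tppp3 did not pass without X91 (adjusted p = 0.058), and with the code step as a block 2 ciliated cell markers were higher. Of the markers of alveoli and vessels 7 of 10 for alveolar type II cells (median log2FC 0.57), 4 of 8 for type I cells (median 0.55) and 6 of 11 for endothelium (median 0.43) were higher. Sftpb, surfactant protein B, ranged over 1076 to 2022 CPM (median 1449.8) without and 1636 to 3616 CPM (median 2528) with DEX. Of the DEX libraries 8 lay above every HDM library (log2FC 0.79, SE 0.19, adjusted p = 0.0011). Tek, the endothelial receptor of angiopoietins, was 1.84-fold higher (adjusted p = 3.0e-04), and Cav1, a protein of caveolae, was higher too (log2FC 0.59, adjusted p = 3.8e-04). The type II count was 3 without X91 and 3 without X111, and the endothelial count was 2 without X31 and 3 without any 1 of X9, X29, X51 or X111. The summed level of the type II markers was 15965 to 29975 CPM (median 18271) without and 18205 to 39952 CPM (median 29066) with DEX, and the part of tissue composition in the other rises was not tested.

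Among single genes that rose, Dpep1, a dipeptidase that cleaves leukotriene D4, ranged over 19.7 to 66.1 CPM (median 28.3) without and 80.2 to 158.8 CPM (median 106.4) with DEX. Every DEX library lay above every HDM library (log2FC 1.83, SE 0.17, adjusted p = 2.5e-14). Inmt, a methyltransferase of indoles abundant in lung, ranged over 391.9 to 640.4 CPM (median 509) without and 985 to 1746 CPM (median 1243) with DEX, without overlap (log2FC 1.26, SE 0.15, adjusted p = 3.7e-10). Clec12b, an inhibitory lectin receptor, ranged over 0.424 to 0.780 CPM (median 0.601) without and 1.11 to 3.79 CPM (median 2.11) with DEX, a low level in both groups but without overlap (log2FC 1.92, SE 0.27, adjusted p = 4.1e-08). The other genes among the 10 largest rises without overlap were Mt3 (log2FC 1.89), a metallothionein, Lamc3 (1.49), a laminin chain, Cdo1 (1.38), which oxidises cysteine, Serpina3c (1.31), Fgfbp1 (1.22), which binds fibroblast growth factors, Abca17 (1.19) and Cyp2d22 (1.18). Thra, a thyroid hormone receptor (1.69-fold higher, adjusted p = 7.5e-14), Gsn, the actin-severing protein gelsolin (1.82-fold higher, adjusted p = 2.7e-12), 9530026P05Rik (2.76-fold higher, adjusted p = 1.4e-11) and Gstm1, a glutathione transferase (1.81-fold higher, adjusted p = 2.6e-11), had with Dpep1 the smallest p-values among the rises. None of these 4 overlapped between the groups either.

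The genes that glucocorticoids are known to induce did not rise as a group. Of 30 such genes 5 were higher and 3 lower (median log2FC 0.09), beside 10.9% and 15.0% of all genes. Fkbp5, a cochaperone that dampens the receptor, ranged over 27.2 to 61.5 CPM (median 31.3) without and 26.9 to 77.3 CPM (median 35.4) with DEX. The groups lay over each other (log2FC 0.02, SE 0.21, adjusted p = 0.95). Tsc22d3, the anti-inflammatory mediator GILZ (log2FC -0.17, SE 0.22, adjusted p = 0.63), Per1, a clock gene (log2FC -0.44, SE 0.31, adjusted p = 0.32), and Zbtb16, a zinc finger transcription factor (log2FC -0.25, SE 0.47, adjusted p = 0.76), did not pass either. In PBS airways these 3 were lower with DEX, Tsc22d3 (log2FC -1.07, adjusted p = 5.8e-04), Per1 (log2FC -0.98, adjusted p = 0.018) and Zbtb16 (log2FC -1.09, adjusted p = 0.035), and no difference between the exposures passed.

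Dusp1, the phosphatase that turns off MAP kinases, ranged over 37.8 to 65.2 CPM (median 54.4) without and 62.5 to 105.97 CPM (median 77.4) with DEX. All but 1 of the DEX libraries lay above every HDM library (log2FC 0.62, SE 0.13, adjusted p = 1.1e-04). Errfi1, an inhibitor of the EGF receptor, was higher as well (log2FC 0.58, adjusted p = 0.0037). The other members that passed were chosen after their values were seen. Higher were Sult1a1 (log2FC 0.64, adjusted p = 0.0093), a sulfotransferase, Sgk1 (log2FC 0.42, adjusted p = 0.02), a kinase of ion transport, and Klf9 (log2FC 0.37, adjusted p = 0.032), a transcription factor. Lower were Ddit4 (log2FC -0.56, adjusted p = 0.0046), an inhibitor of mTOR signalling, and Tnfaip3 (log2FC -0.28, adjusted p = 0.034), an inhibitor of NF-κB, beside Rgs2 (log2FC -0.53, adjusted p = 0.0027), a regulator of G protein signalling that the rule had named.

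**Figure D3:**
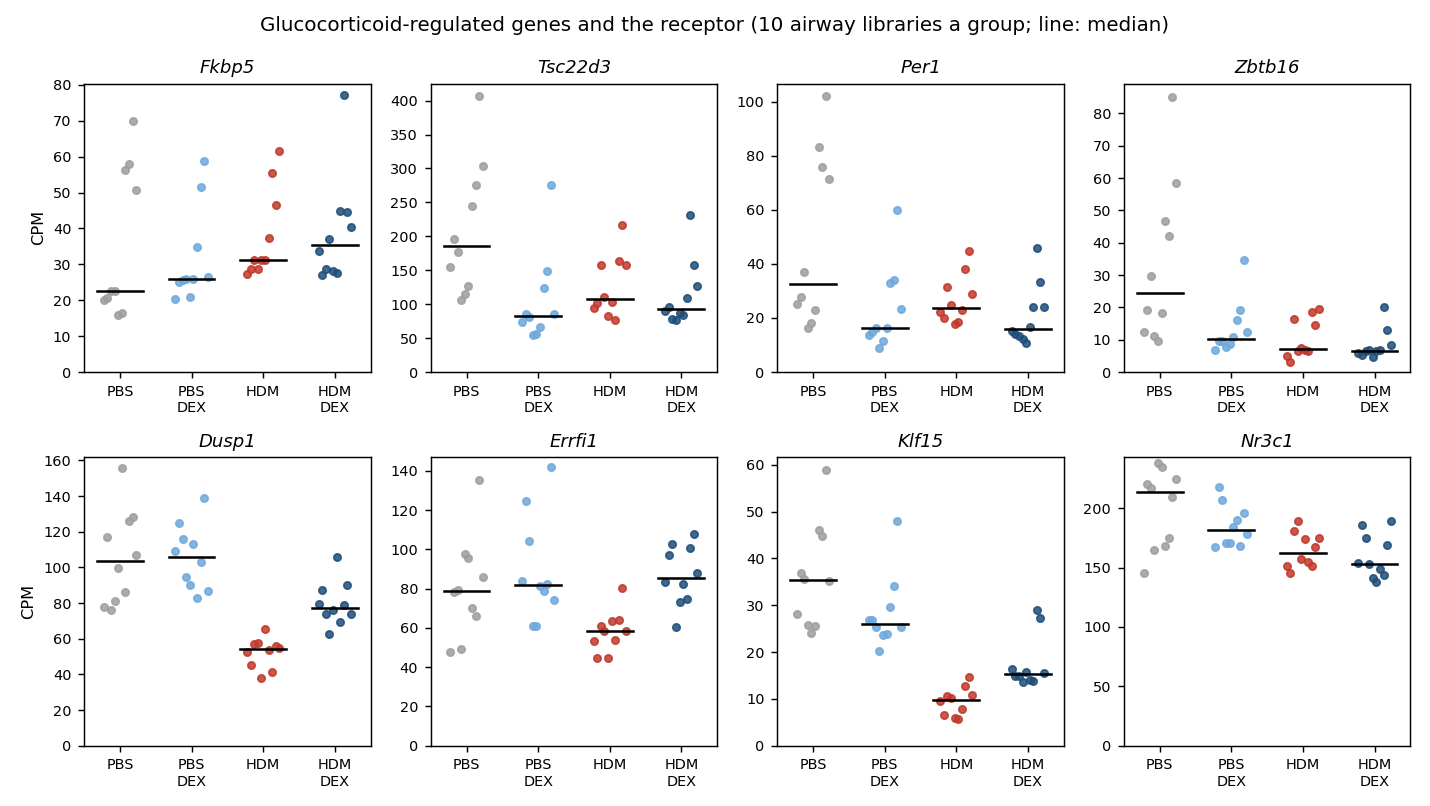
Levels in CPM on a linear axis of 7 genes regulated by glucocorticoids and of the receptor gene Nr3c1 in 4 groups of airway libraries in normal air, with 1 point for each library in order of its code from left to right and a line at the median. In the PBS group the 4 libraries of highest code lie above the other 6 for Fkbp5, Tsc22d3, Per1 and Zbtb16, while Dusp1 is higher in 9 HDM DEX libraries than in any HDM library.

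The level of Fkbp5 differed with the number code of the libraries. The codes rise by 20 within a group, and the labels do not say what they mean. For Fkbp5 the 6 libraries of lowest code ranged over 27.2 to 31.3 CPM and the 4 of highest code over 37.2 to 61.5 CPM in HDM.AIR. In HDM.AIR.DEX they ranged over 26.9 to 37.1 CPM and 40.4 to 77.3 CPM, and in PBS airways without DEX over 15.9 to 22.7 CPM and 50.8 to 69.8 CPM. The blocks did not overlap in any of these 3 groups. For Tsc22d3 and Per1 the blocks overlapped in HDM.AIR but not in HDM.AIR.DEX. For Zbtb16 and Dusp1 they overlapped in both HDM groups. In PBS airways without DEX they did not overlap for Tsc22d3, Per1 and Zbtb16, but did for Dusp1. Within the low codes alone the log2FC of Fkbp5 was 0.01 (adjusted p = 0.97) and within the high codes alone 0.03 (adjusted p = 0.97). For Kif11 they were -2.76 (adjusted p = 3.8e-11) and -1.65 (adjusted p = 0.00044). This division was chosen after the data were seen.

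The palindromic glucocorticoid response element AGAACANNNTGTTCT was found in a promoter window of 1 of 26 glucocorticoid-induced genes with a window, Sgk1, which was also the 1 gene with it (0.00778%) among all tested genes with a window. Sgk1 had 6 windows, of which 1 held the element. A window is short, and response elements also lie elsewhere. The matching window of Sgk1 is shown, with the element in capitals, since Sgk1 was the 1 listed target with the full palindrome.
Sgk1 (chr10:21993640-21993889, plus strand): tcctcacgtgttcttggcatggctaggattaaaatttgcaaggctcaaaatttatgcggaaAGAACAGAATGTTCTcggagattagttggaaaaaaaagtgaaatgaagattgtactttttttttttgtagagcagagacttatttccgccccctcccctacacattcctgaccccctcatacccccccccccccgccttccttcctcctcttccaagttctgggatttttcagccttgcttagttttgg
The receptor gene Nr3c1 ranged over 145.8 to 189.5 CPM (median 162.4) without and 137.8 to 188.8 CPM (median 153.2) with DEX and did not pass (log2FC -0.05, SE 0.07, adjusted p = 0.69). Of 20 genes of the receptor machinery 3 were higher and 0 lower, near the 10.9% of all genes that were higher. The 3 members were Nr3c2, the mineralocorticoid receptor (log2FC 0.37, adjusted p = 0.0021), Hsd11b1, which regenerates active glucocorticoid (log2FC 0.50, adjusted p = 0.0047), and Bag1, a cochaperone (log2FC 0.21, adjusted p = 0.043). Bag1 did not pass with edgeR (adjusted p = 0.052) or without any 1 of X29, X31, X49, X69, X89, X91, X111, X129 or X171 (adjusted p = 0.061 to 0.18).

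Whether the DEX effect depended on HDM was tested as the difference between the effects in HDM and in PBS airways. In PBS airways 1171 genes were higher (6.50%) and 1042 lower (5.78%) with DEX. The effect was more positive in HDM airways for 0.871% of genes and more negative for 561 (3.11%). It was more negative for 22 of the 24 cell cycle genes, of which 11 were lower with DEX in PBS airways (median log2FC -0.35). Their summed level was 199.9 to 331 CPM (median 254) in PBS.AIR and 169.3 to 222 CPM (median 199.3) in PBS.AIR.DEX libraries. It was 518 to 698 CPM (median 591) in HDM.AIR and 179.99 to 339 CPM (median 225) in HDM.AIR.DEX libraries. HDM libraries without DEX lay above all libraries of the other 3 groups, and those with DEX overlapped the PBS groups. HDM was associated with a higher level of 24 of the 24 genes without DEX (30.7% of all genes) and of 5 with DEX (22.9% of all genes).

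Single genes outside the cycle also differed between the exposures. Slpi did not pass in PBS airways (log2FC 0.22, adjusted p = 0.59), and the effect in HDM airways less that in PBS airways was -3.02 (adjusted p = 1.1e-08). Edem1, of the degradation of misfolded proteins in the endoplasmic reticulum, ranged over 269 to 421 CPM (median 347) in HDM.AIR and 156.4 to 272 CPM (median 184.9) in HDM.AIR.DEX libraries, and its difference of effects was -1.04 (adjusted p = 4.5e-08). The difference was -2.40 (adjusted p = 1.8e-07) for Mybl1, -1.75 (adjusted p = 0.0023) for Retnla and -2.03 (adjusted p = 0.0073) for Il6. In the opposite direction it was 0.93 (adjusted p = 7.3e-06) for Gstm1, 0.62 (adjusted p = 1.2e-04) for Hes1, an effector of Notch, and 1.22 (adjusted p = 1.4e-04) for Klf15, a metabolic transcription factor. Klf15 ranged over 5.81 to 14.7 CPM (median 9.85) in HDM.AIR and 13.6 to 29.05 CPM (median 15.3) in HDM.AIR.DEX libraries, beside a mean of 36.1 CPM in PBS.AIR libraries. Thus the DEX libraries lay partly above the HDM range and below the PBS mean.

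Of 24 matrix and remodelling genes 5 were lower and 1 higher with DEX in HDM airways (median log2FC -0.09), and 0 lower and 9 higher in PBS airways (median 0.29). Over all genes 15.0% were lower and 10.9% higher in HDM airways, and 5.78% and 6.50% in PBS airways. The difference passed for 7 of the 24 genes, more negative in HDM airways, beside 3.11% of all genes. Col3a1, a fibrillar collagen, ranged over 559.8 to 866 CPM (median 648) in HDM.AIR and 125.9 to 431 CPM (median 363) in HDM.AIR.DEX libraries. Its groups did not overlap (log2FC -1.08, SE 0.19, adjusted p = 3.7e-06), and the difference from PBS airways was -1.17 (adjusted p = 0.0021). Timp1, an inhibitor of matrix proteases, was 3.64-fold lower in HDM airways (adjusted p = 2.4e-06), with a difference of -2.50 (adjusted p = 4.3e-04). Eln, elastin, chosen after its values were seen, was the member that was higher in HDM airways (log2FC 0.98, adjusted p = 0.0016), and it was higher in PBS airways too (log2FC 1.04, adjusted p = 0.0028).

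Natural killer, B cell, interferon and antigen presentation lists gave no member that passed the test of the difference. In PBS airways DEX lowered 11 of 12 natural killer and cytotoxic markers (median log2FC -1.63), 10 of 11 B cell markers (median -1.10), 17 of 24 interferon response genes (median -0.73) and 15 of 20 antigen presentation genes (median -0.84). That no difference passed does not show that the effects were equal. Of the 15 plasma cell markers 1 was lower in PBS airways, and the difference passed for 2. Their summed level was 944 to 2940.3 CPM (median 1095) in PBS.AIR, 27413 to 54869.9 CPM (median 45039) in HDM.AIR and 7642 to 26519.6 CPM (median 12283) in HDM.AIR.DEX libraries, so that the HDM groups lay far above the PBS group.

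**Figure D4:**
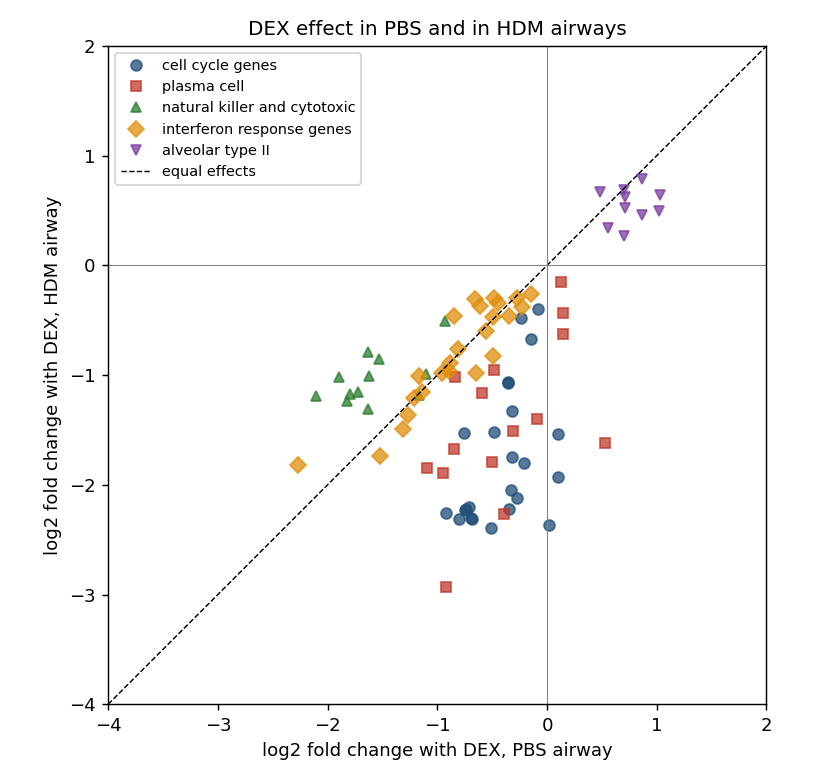
Log2FC with DEX in PBS airways (horizontal axis) and in HDM airways (vertical axis) for the members of 5 gene lists, with 1 point a gene and a dashed line of equal effects. Cell cycle genes lie below the line (median -0.35 in PBS and -1.99 in HDM airways), and interferon response genes scatter around it (median -0.73 and -0.79).

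With HDM and smoke, 275 airway genes were higher (1.53%) and 1083 lower (6.01%) with DEX. The effect in HDM mice in air was more positive than with smoke for 14 genes (0.0777%) and more negative for 87 (0.483%). Of the 24 cell cycle genes 23 were lower with smoke (median log2FC -1.15), and for 5 the effect was more negative in air. Psat1, an enzyme of serine synthesis, ranged over 22.4 to 29.5 CPM (median 24.9) in HDM.AIR and 10.02 to 16.1 CPM (median 13.6) in HDM.AIR.DEX libraries, without overlap (log2FC -0.93, SE 0.10, adjusted p = 2.6e-12). With smoke its change did not pass (log2FC -0.10, adjusted p = 0.63), and the difference did (adjusted p = 7.8e-04). Lig1, DNA ligase I (adjusted p = 0.0016 for the difference), and Uhrf1 (adjusted p = 0.0043) also fell further in air, and Gstm1 (adjusted p = 0.0012), Dpep1 (adjusted p = 0.0012) and Thra (adjusted p = 0.005) rose further in air.

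In the parenchyma of HDM mice 2235 of 18250 genes were higher (12.2%) and 2960 lower (16.2%) with DEX. The difference between the tissues passed for 0 genes in limma-voom, with 222 at an unadjusted p-value under 0.05 (1.22%), and for 96 genes in edgeR. The share of 1.22% lies below the 0.05 that unadjusted p-values would give without any difference, so the limma-voom test was strict here. That no difference passed does not show that the effects were equal in both tissues. The log2FC in parenchyma was -2.23 for Kif11, -2.64 for Slpi and -1.63 for Muc5ac. In airway they were -2.30, -2.80 and -2.55. The labels do not say which airway and parenchyma libraries share an animal.

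The genes that HDM changes were taken from other libraries, the 21 airway libraries at 3 weeks, of which 10 received HDM and 11 PBS. There 12.6% of genes passed as at least 2-fold higher and 10.3% as at least 2-fold lower with HDM. Of the 2127 genes of the first kind that were tested at 11 weeks, 1213 (57.03%) were lower and 39 (1.834%) higher with DEX, with a median log2FC of -0.59. Of 1735 genes of the second kind, 469 (27.03%) were higher and 22 (1.268%) lower with DEX (median 0.32). Among the 13088 other genes 10.92% were higher and 10.57% lower (median 0.01). Among the genes that passed, DEX thus mostly moved opposite to HDM.

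**Figure D5:**
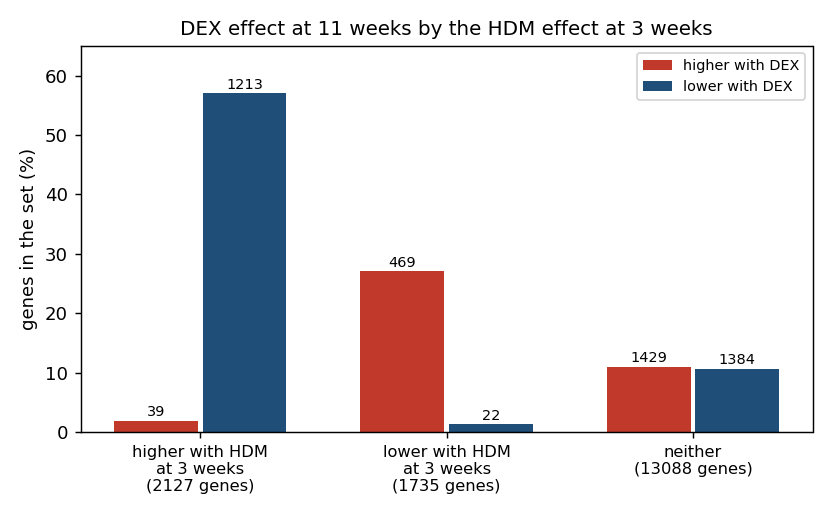
Percent of genes higher or lower with DEX in HDM airways at 11 weeks, among genes at least 2-fold higher with HDM at 3 weeks, at least 2-fold lower or neither, with the number of genes on each bar. Of the first set 57.03% were lower with DEX, and of the second 27.03% were higher.

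Of 12 receptors of airway drugs 3 were lower and 0 higher, beside 15.0% and 10.9% of all genes. The counts of lower receptors and of lower acute phase genes are small and not far from that share. Cysltr1 (log2FC -0.39, adjusted p = 0.0091) and Cysltr2 (log2FC -0.63, adjusted p = 5.0e-04), the receptors of cysteinyl leukotrienes, and the prostaglandin receptor Ptger4 (log2FC -0.50, adjusted p = 0.0021) were lower. Cysltr1 did not pass without X151 (adjusted p = 0.065). Of 15 tested ion transport genes 4 were higher, among them Slc26a9, an anion transporter (1.95-fold higher, adjusted p = 2.3e-04), Scnn1b, a subunit of the epithelial sodium channel (log2FC 0.58, adjusted p = 0.0019), and Aqp1, a water channel (log2FC 0.50, adjusted p = 0.001). Of 19 tested acute phase genes 4 were lower, among them complement C3 (log2FC -0.59, adjusted p = 1.6e-04) and Cp, ceruloplasmin (log2FC -0.49, adjusted p = 0.01).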

How the data were processed

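RNA-seq of mouse airway was analysed from a table of gene counts for all 203 libraries, with columns matched to samples by the number code in their titles. The reads were 100-base single reads, per the study's methods. The authors deposited estimated counts per gene, not scaled for library size or length. Fractions made up 20.29% of the values above 0, and values were rounded to whole counts here. The submitters' processing notes name bcl2fastq 2.20.0.422, STAR 2.5.1b, RSEM 1.2.31, kallisto 0.44.0 and mm10, but not which tool made the table or whether strand was used, so genes that overlap or have near-identical copies are uncertain. Of 43346 gene identifiers 42462 matched GENCODE M21 without their version and 23106 with it.

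A gene was kept where 9 or more libraries reached 0.3404 CPM, which is 10 counts in a library of median size. limma-voom (limma 3.58.1, R 4.3.3) with TMM factors from edgeR 4.0.16 was fitted to the 80 airway libraries of 8 groups at 11 weeks, with 1 mean a group. Differences between DEX effects were contrasts of the same fit; airway and parenchyma were compared in a fit of 160 libraries, and HDM at 3 weeks in a fit of 21. P-values were adjusted by Benjamini-Hochberg over all genes of a comparison, and a gene passed at an adjusted p-value under 0.05. The study's methods cover the 3-week libraries. CPM values use the TMM factors. The scripts were tested on simulated counts. Alternatives tried were other tests (edgeR's quasi-likelihood test and DESeq2 1.42.0), filters, scalings and sample sets, a block by code, and leaving out each library.

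Members and gene lists were chosen with earlier results of these data known. Named genes were a set of 24 known glucocorticoid, type 2, mucus and inflammatory genes; the 10 largest rises and falls among protein-coding genes that passed, reached a mean of 1 CPM and did not overlap; the 5 smallest p-values in each direction; the 3 smallest in each function list and the 2 smallest in each marker list that moved; and the 3 smallest in each direction for each difference. Some items are not reported here. Promoter windows came from RefSeq (GRCm38.p6), with 12849 of 18012 tested symbols matched.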

Additional observations from a re-analysis of the deposited data

Results flagged for a closer look

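Among the named genes, 264 groups of 10 libraries were examined for a library whose gap to its nearest neighbour, as a share of the whole range, passed Dixon's 95% critical value, and 13 did. Chance would give about 1 in 20 of independent groups, and 13 of 264 lies near that share. The groups share the same 20 libraries and are not independent, so this count cannot decide whether a gap is a trait of a library. X109 stood apart in 5 groups, X11 in 4, X151 in 3 and X89 in 1. The HDM.AIR library X109 stood low for Cr2 (24.8 CPM, group median 70.3), Lep (0 CPM, group median 0.482), Mybl1 (7.01 CPM, group median 22.2) and Rgs13 (1.84 CPM, group median 7.76), and high for Cd74 (4454 CPM, group median 2638). Cr2, Mybl1 and Rgs13 are genes of germinal centre or follicular B cells. The HDM.AIR.DEX library X11 stood high for H2-Aa (964 CPM, group median 368), Cd74 (2988 CPM, group median 1083), Irf8 (106.8 CPM, group median 56.6) and Csf1r (182.7 CPM, group median 130.9), which are genes of antigen presentation and of myeloid cells. The HDM.AIR.DEX library X151 stood high for Fkbp5 (77.3 CPM, group median 35.4) and low for Col3a1 (125.9 CPM, group median 363) and Cysltr1 (5.34 CPM, group median 10.2). The HDM.AIR library X89 stood high for Flt3 (30.6 CPM, group median 16.2).

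The difference between the DEX effect in HDM and in PBS airways passed in limma-voom for 38 named genes. On the log2 scale it was positive, the effect being more positive in HDM airways, for Dusp1 (0.59), Mt3 (2.37), Inmt (1.08), Fgfbp1 (1.01), Cyp2d22 (0.83), Gsn (0.52), 9530026P05Rik (0.85), Gstm1 (0.93), Nr3c2 (0.61), Tcf21 (0.90), Hes1 (0.62) and Klf15 (1.22). It was negative for Retnla (-1.75), Il6 (-2.03), Cdc25c (-2.54), Esco2 (-2.26), Slpi (-3.02), Mef2b (-2.87), Pimreg (-1.76), Pclaf (-1.51), Dck (-0.78), Uhrf1 (-1.30), Ncapd2 (-1), Lmnb1 (-0.71), Nos2 (-1.59), C3 (-0.69), Cp (-0.96), Timp1 (-2.50), Col3a1 (-1.17), Kif11 (-1.61), Mcm6 (-0.78), Aurkb (-1.48), Irf4 (-1.20), Edem1 (-1.04), Mybl1 (-2.40), Psat1 (-0.86), Lig1 (-0.61) and Rgs13 (-3.77). Kif11 and Aurkb act in cell division, and Mybl1 and Rgs13 are genes of B cells. How the genes were named does not allow a theme to be read from them.

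The difference between the DEX effect in HDM mice in air and with smoke passed for 19 named genes. It was positive, the effect being more positive in air, for Dusp1 (0.83), Dpep1 (1.36), Serpina3c (1.02), Cyp2d22 (0.85), Thra (0.52), Gsn (0.51), Gstm1 (0.81) and Klf15 (0.95). It was negative for Il6 (-1.76), Dck (-0.58), Uhrf1 (-1.15), Ncapd2 (-0.69), Lmnb1 (-0.52), Timp1 (-1.72), Kif11 (-1.10), Mcm6 (-0.87), Mybl1 (-1.20), Psat1 (-0.83) and Lig1 (-0.58). Both differences use the same HDM.AIR and HDM.AIR.DEX libraries. The cause of these differences was not tested.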

How the results depend on the processing

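Over the alternatives not chosen after seeing the data, 9 named genes lost a call under at least 1 (Bag1, Bhlhe41, Chil4, Cysltr1, Il1rl1, Il5ra, Lep, Tppp3 and Tshr), 5 gained one (Bcl6, Ccl11, Ccl24, Hlf and Il13) and 0 reversed, and the other named genes kept their direction and their side of the threshold. The calls shared with the reported ones were 69.5% to 99.3% of them over the alternatives other than leaving out libraries and splitting them by code. Genes at least 2-fold higher with DEX numbered 150 with DESeq2, 1.6e+02 with no filter and 29 with at least 10 CPM required, and those at least 2-fold lower 338 with at least 10 CPM. Leaving out 1 library gave 1624 (X29) to 2292 (X151) genes higher, 2283 (X171) to 2776 (X11) lower and 778 to 928 at least 2-fold lower. The difference between HDM and PBS airways was more positive for 323 genes with DESeq2 and 566 with quality weights, and more negative for 370 with at least 10 CPM. The difference between air and smoke was more positive for 29 genes with DESeq2, 8 with no filter, 9 with at least 10 CPM, 23 with only the groups compared and 25 with quality weights. It was more negative for 49 with edgeR, 140 with DESeq2, 46 with no filter, 42 with only the groups compared and 50 with all 160 libraries. The difference between airway and parenchyma passed for 80 genes higher and 16 lower with edgeR and for 2 lower with no filter. Apart from fewer genes being tested at 10 CPM and fewer libraries being used, the cause was not tested.

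Libraries of a group share code steps with those of other groups, and a fit with the code step as a block gave 2529 genes higher and 2987 lower with DEX, 379 more positive and 857 more negative in HDM than in PBS airways, and 45 and 1.4e+02 for air against smoke. The deviations of same-step libraries correlated between -0.35 and 0.7 (median 0.27), with 7 of 10 over 0.1, and 3 HDM.AIR and 4 HDM.AIR.DEX libraries correlated best with their own step, so the steps were not taken as pairs.

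Chosen after the data were seen, a split by code gave 1295 genes higher within the 6 low steps, and 419 higher, 1002 lower and 488 at least 2-fold lower within the 4 high steps, where fewer libraries were compared, and the calls shared with the reported ones were 64.5% of them in the low and 29.2% in the high steps. All 24 cell cycle genes were lower without any 1 library. The T cell count ran from 7 to 13, that of glucocorticoid-induced genes from 3 to 5 (3 without X9), and that of the C-type lectin and SPI1 list from 3 (without X171 or X189) to 6. Depth limits Il5, Epx, Il13 and Dntt, with few counts in any library.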

Other observations

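Chosen after their values were seen, 3 genes of red blood cell precursors were lower with DEX, and no list of such genes was tested. Hbb-bt, a beta globin, ranged over 39.1 to 150.3 CPM (median 66.4) in HDM.AIR and 4.32 to 33.1 CPM (median 9.13) in HDM.AIR.DEX libraries, without overlap (log2FC -2.72, SE 0.37, adjusted p = 1.6e-08). Alas2, the first enzyme of haem synthesis in erythroid cells, ranged over 10.4 to 29.2 CPM (median 16.8) without and 1.08 to 9.78 CPM (median 2.84) with DEX, without overlap (log2FC -2.65, SE 0.43, adjusted p = 1.3e-06). Hba-a1, an alpha globin with a near-identical copy, was 5.05-fold lower (adjusted p = 8.4e-09). All 3 were also lower with DEX in PBS airways, Hbb-bt (log2FC -2.70, adjusted p = 6.3e-09), Alas2 (log2FC -2.58, adjusted p = 6.3e-09) and Hba-a1 (log2FC -2.35, adjusted p = 2.8e-06), and their difference between the exposures did not pass.

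In lists of other tissues few members passed, and the medians differed. Over all genes 10.9% were higher and 15.0% lower with DEX, and the counts of 1 member below lie near these shares. The median log2FC was 1.13 for adipose, 0.54 for Schwann cell, 0.51 for cardiac muscle, 0.27 for smooth muscle and -0.27 for cartilage markers, beside 0.01 over all genes. None of the 10 smooth muscle, 10 cardiac muscle or 9 cartilage markers tested passed. Of 10 adipose markers 1 was higher, Lep (log2FC 2.87, SE 0.96, adjusted p = 0.02), and of 8 Schwann cell markers 2 were higher, Prx (log2FC 0.69, adjusted p = 0.0086) and Pmp22 (log2FC 0.53, adjusted p = 0.0098). The adipose count was 3 with DESeq2 and 2 with the code step as a block. Of 5 tested thyroid markers 1 was higher, Tshr (log2FC 1.86, adjusted p = 0.041), which did not pass without any 1 of X51, X69, X129, X131, X151, X169, X189 or X191 (adjusted p = 0.051 to 0.077). Of 6 tested skeletal muscle markers 1 was lower, Pvalb (log2FC -1.73, adjusted p = 3.3e-04). Of 8 tested basal and squamous markers 1 was lower, Sprr2a3 (log2FC -2.95, adjusted p = 2.6e-05), and of 11 tested mast cell markers 1 was higher, Hdc, the enzyme of histamine synthesis (log2FC 0.47, adjusted p = 5.1e-04). Of 9 fibroblast markers 3 were higher and 1 lower, with Pdgfra (log2FC 0.54, adjusted p = 0.0038) and Tcf21 (log2FC 0.69, adjusted p = 0.0071) among the higher ones. Of 17 clock genes 1 was higher, Bhlhe41 (log2FC 0.47, adjusted p = 0.038), which did not pass without any 1 of X9, X31, X69, X71, X89, X91, X111, X129 or X191 (adjusted p = 0.055 to 0.084).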
